A study of Mus musculus with 60 samples.

Results

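H3R26C is a form of histone H3 in which the arginine next to lysine 27 is replaced by cysteine. The trimethyl mark on that lysine (H3K27me3) was compared here between cells with H3R26C and cells with wild-type H3 (H3WT), by gene, gene family and neighbourhood. The members were the 6 samples whose labels named anti-H3K27me3 and either H3WT or H3R26C, of 60 samples in the series, with 3 labelled replicates per genotype. In each genotype the lists of replicates 1 and 2 held identical values and were counted once, which left 2 independent libraries per genotype. Nothing in the labels says that these came from separate cultures, so each p-value measures only the spread between these libraries.

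Both genotypes were C3H 10T1/2 (Clone 8) cells, a mouse line of mesenchymal progenitors. Each carried a lentiviral human H3C2 transgene behind an EF1 promoter, with HA and FLAG tags at the C terminus of the histone, and was a pool of cells selected with puromycin. H3WT cells carried the wild-type form and H3R26C cells the cysteine form. The endogenous H3 genes of the cells were present in both, so that the tagged histone made up only part of their H3. The mark was mapped by CUT&RUN, in which chromatin bound by an antibody is cut free by a tethered nuclease and its DNA is read.

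H3K27me3 is set by the EZH1 or EZH2 subunit of Polycomb Repressive Complex 2 (PRC2), and it is bound by EED of the same complex and by the CBX proteins of PRC1. In progenitor cells it covers genes that are held silent, above all transcription factors and signalling genes of other lineages, and it also lies in broad, weak domains over silent chromatin between genes. The Hox clusters are the best known of its long domains.

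The library of H3R26C replicate 3 stood apart in the shape of its peaks. The independent lists held 22083 and 20543 peaks in H3WT, and 24598 and 22814 in H3R26C. Peaks covered 104 and 98.6 Mb in H3WT, 120.1 Mb in H3R26C replicates 1 and 2, and 64.2 Mb in H3R26C replicate 3, where the median peak was 1.9 kb long against 3.05 to 3.2 kb in the other lists. The mean covered length was lower by 8.96 Mb in H3R26C (exact permutation test, two-sided, p = 1, where the smallest p that 2 libraries against 2 allow is 0.333), and without H3R26C replicate 3 it was 18.99 Mb higher. Of the bases covered by either of a pair of lists, the share covered by both was 0.583 within H3WT and 0.431 within H3R26C. The list of H3WT replicates 1 and 2 had 18.0% of its peaks on the X chromosome, against 11.2% to 12.5% in the other lists. None of 20 housekeeping genes and none of 12 genes of mesenchymal progenitors and fibroblasts had a peak at its start in any list. Of 15 markers of other cell types, 6 had one in at least 1 list (Cd3e, Kdr, Myod1, Neurod1, Olig2 and Pax6), Kdr only in H3R26C. Most starts lack the mark, since 2779 of 21938 protein-coding genes started in a consensus region as defined below. Its absence at these few genes therefore says little about the identity of the cells.

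Merging the peaks of the 4 lists gave 30731 regions. A consensus region had to hold a peak in both libraries of H3WT or in both of H3R26C, which 17164 did, and its median length was 5.5 kb. The scaled signal of a region is the summed total signal of its peaks divided by the median of that sum over the 8939 regions that were called in all lists, so that 1 is the level of a typical shared region and 0 means no peak. Changes are given on the scale of log2(scaled signal + 0.25), H3R26C minus H3WT, with the standard error (SE) from limma, and a region was called at a Benjamini-Hochberg adjusted p under 0.05. By this measure H3K27me3 was lower in H3R26C at 2292 of the consensus regions (13.4%) and higher at 2101 (12.2%). In bulk cells, fewer cells with the mark at a site and less of it per cell cannot be told apart. Most calls lay where 1 genotype had no peak, since 81.0% of the lower regions had none in H3R26C and 90.9% of the higher regions had none in H3WT. With an absent peak set to the lowest signal of its list instead of 0, the counts were 916 lower and 589 higher. A region with no peak in either library of 1 genotype entered the fit only through the other genotype. Its absent peaks have a spread of 0 by construction, so its p-value is not independent support. With no consensus filter, limma called 0 regions lower and 0 higher. A fit restricted to the 8939 shared regions called 581 lower (6.5%) and 399 higher (4.46%).

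**Figure D1:**
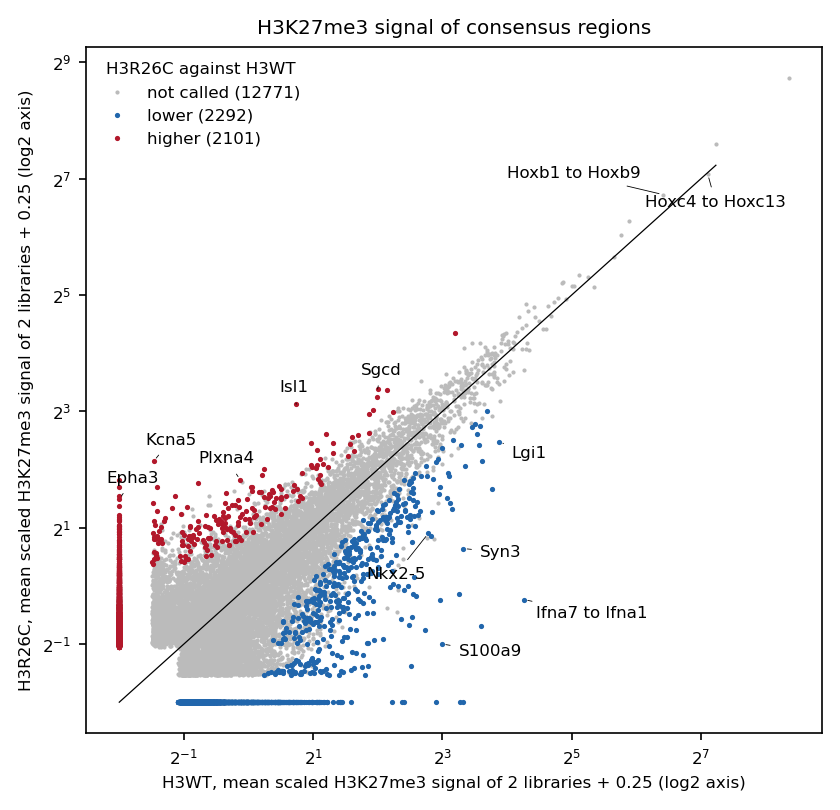
Mean scaled H3K27me3 signal of each consensus region in H3WT (x axis) and H3R26C (y axis), 2 independent libraries each, plus 0.25 on log2 axes, coloured by the limma call. The 2292 lower regions lie below the diagonal and the 2101 higher regions above it, many of them on the edge where 1 genotype had no peak, and the Hoxb and Hoxc domains lie near the diagonal.

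As presence or absence of a peak, 13476 regions were called in both H3WT libraries, and 1890 of these (14.0%) had no peak in either H3R26C library. Of the 12627 regions called in both H3R26C libraries, 1949 (15.4%) had none in H3WT. The lost regions were weak where they were present, with a median H3WT scaled signal of 0.383, and 97 of them exceeded 1 in both H3WT libraries. Among the gained regions, 43 exceeded 1 in both H3R26C libraries.

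Promoters of strongly changed regions are set side by side here, because the change in H3K27me3 reached genes of very different promoter types. Each sequence is the 250 bases before an annotated start, 5′ to 3′ on the strand of the gene, from the RefSeq promoter table of GRCm38.p6, the assembly also named mm10. Capitals mark the E-box CANNTG, the core site of basic helix-loop-helix factors, which reads the same on both strands. H3K27me3 was lower in H3R26C at Nkx2-5 (chr17:26841566-26841815, minus strand), Six6 (chr12:72939632-72939881, plus strand), Ifna4 (chr4:88841566-88841815, plus strand) and S100a9 (chr3:90695722-90695971, minus strand). It was higher at Isl1 (chr13:116309689-116309938), Kcna5 (chr6:126535556-126535805) and Epha3 (chr16:63864176-63864425), all on the minus strand.
Nkx2-5: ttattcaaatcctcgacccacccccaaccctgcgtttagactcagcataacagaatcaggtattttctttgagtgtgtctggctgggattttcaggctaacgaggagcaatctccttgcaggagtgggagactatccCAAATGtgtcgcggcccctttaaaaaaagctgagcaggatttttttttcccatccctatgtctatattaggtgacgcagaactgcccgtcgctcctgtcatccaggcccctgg
Six6: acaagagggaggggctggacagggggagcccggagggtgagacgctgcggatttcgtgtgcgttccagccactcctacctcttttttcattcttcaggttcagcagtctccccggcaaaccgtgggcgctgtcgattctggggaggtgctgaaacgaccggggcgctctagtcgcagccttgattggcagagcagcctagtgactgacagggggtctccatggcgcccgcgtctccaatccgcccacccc
Ifna4: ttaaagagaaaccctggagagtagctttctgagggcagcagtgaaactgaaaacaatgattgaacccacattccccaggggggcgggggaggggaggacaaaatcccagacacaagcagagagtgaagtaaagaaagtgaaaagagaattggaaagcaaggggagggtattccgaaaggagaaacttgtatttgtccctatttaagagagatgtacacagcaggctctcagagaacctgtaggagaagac
S100a9: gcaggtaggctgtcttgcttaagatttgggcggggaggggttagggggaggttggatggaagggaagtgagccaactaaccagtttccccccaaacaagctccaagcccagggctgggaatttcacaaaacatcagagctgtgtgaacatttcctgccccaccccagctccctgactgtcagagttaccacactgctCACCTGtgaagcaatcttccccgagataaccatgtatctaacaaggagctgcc
Isl1: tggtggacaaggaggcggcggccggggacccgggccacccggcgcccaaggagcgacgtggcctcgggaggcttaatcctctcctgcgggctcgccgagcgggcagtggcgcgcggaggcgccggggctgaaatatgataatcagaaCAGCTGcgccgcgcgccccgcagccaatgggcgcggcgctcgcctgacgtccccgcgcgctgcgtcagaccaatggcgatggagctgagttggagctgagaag
Kcna5: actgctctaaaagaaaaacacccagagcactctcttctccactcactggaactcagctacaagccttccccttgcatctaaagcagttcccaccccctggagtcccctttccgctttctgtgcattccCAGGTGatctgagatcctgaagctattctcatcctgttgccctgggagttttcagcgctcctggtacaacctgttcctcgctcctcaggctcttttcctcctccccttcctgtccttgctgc
Epha3: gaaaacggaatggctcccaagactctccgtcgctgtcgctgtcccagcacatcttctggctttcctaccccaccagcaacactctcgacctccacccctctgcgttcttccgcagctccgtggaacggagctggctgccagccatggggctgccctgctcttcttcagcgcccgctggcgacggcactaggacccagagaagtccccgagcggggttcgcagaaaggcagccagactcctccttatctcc

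Among the sequences shown, the lower regions held 8 CpG dinucleotides in Nkx2-5, 17 in Six6, 2 in Ifna4 and 2 in S100a9, and the higher regions held 33 in Isl1, 3 in Kcna5 and 16 in Epha3. Both directions thus included CpG-rich and CpG-poor promoters. An E-box was held by 66.2% of all 32851 promoters in the RefSeq file, against 68.4% of the 383 promoters in lower regions and 64.7% of the 275 in higher regions. CAGCTG, a form of the E-box bound by myogenic factors and a subset of CANNTG, was in 13% of all promoters, 15.1% of those in lower regions and 13.5% of those in higher regions. At least 10 CpG were found in 30.0% of promoters in lower regions, 42.2% in higher regions and 38.2% in consensus regions that were not called. These shares describe letters in a window of 250 bases.

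Among called regions with a protein-coding start, the largest fall in mean scaled signal lay in the type I interferon cluster at the starts of Ifna7, Ifna11, Ifna6, Ifna5, Ifna4 and Ifna1, which encode antiviral cytokines (chr4:88813351-88866750). Its scaled signal was 19.7 and 18.1 in the H3WT libraries and 0.828 and 0.371 in those of H3R26C, a log2 change of -4.55 (SE 0.30, limma adjusted p = 0.00447). The gap between the genotypes was far wider than the difference between the libraries of either. With the maximum signal of its peaks in place of the total, the region was not called by limma. In the 2 libraries each of H3R8C and H3R2C, the transgenic lines with cysteine at other arginines, the same region had a scaled signal of 14.8 and 12.2, and of 10.0 and 14.1, when all 8 libraries were scaled together. The direct difference was -4.28 from H3R8C (limma adjusted p = 0.000835) and -4.11 from H3R2C (adjusted p = 0.00055), so the low level was found in H3R26C and in neither of the other lines. Genes of this cluster are close copies of each other, further copies lie outside the region, and how reads were placed among them was not tested, so the values of single genes are uncertain.

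A domain of chromosome 19 fell over genes of secreted and retinal proteins. At Lgi1, which encodes a secreted neuronal protein (chr19:38242051-38290500), the scaled signal was 15.0 and 13.8 in H3WT and 6.77 and 3.87 in H3R26C, a log2 change of -1.45 (SE 0.30, adjusted p = 0.0305). At Rbp4, the retinol carrier of plasma, and Pde6c, a cone phosphodiesterase (chr19:38120301-38151350), it was 9.25 and 9.39 in H3WT, 1.32 in H3R26C replicates 1 and 2, and 0 in H3R26C replicate 3. The genotypes did not overlap at either region, which the choice of regions required.

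S100a9, a calcium-binding protein of neutrophils (chr3:90673301-90701300), had 7.87 and 7.50 in H3WT against 0.501 and 0 in H3R26C, a log2 change of -4.19 (SE 0.56, adjusted p = 0.00798). Syn3, a synapsin of nerve terminals (chr10:86474001-86503150), had 9.53 and 9.92 against 1.83 and 0.793, a log2 change of -2.76 (SE 0.36, adjusted p = 0.00773). Olfactory receptor genes were also among the strongest falls, with 6.58 and 6.21 against 0.392 and 0.295 over Olfr1395 and Olfr1394 (chr11:49148051-49174900). The choice of these regions required both H3R26C libraries to lie below both of H3WT. Syn3 still kept the level of a typical shared region in 1 H3R26C library. The major histocompatibility gene H2-Q1 fell by less, from 10.1 and 9.78 to 4.09 and 3.78, and as a member of a family of close copies it is uncertain. Prkch, a protein kinase C, fell from 7.79 and 8.49 to 3.05 and 2.18.

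Tmem273 (chr14:32743001-32800800) fell from 12.4 and 11.4 in H3WT to 4.43 and 3.92 in H3R26C, a log2 change of -1.46 (SE 0.16, adjusted p = 0.00533). Unlike the other largest falls it was lower still in H3R8C, at 0.867 and 0.155 on the scale of 8 libraries, and the direct difference of H3R26C from H3R8C was 2.41 (adjusted p = 0.00963).

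The largest rise in mean scaled signal among such regions was that of Isl1, a LIM homeobox factor of motor neurons, pancreatic islets and cardiac progenitors (chr13:116291701-116315400). Its scaled signal was 0.976 and 1.86 in H3WT and 6.58 and 10.3 in H3R26C, a log2 change of 2.40 (SE 0.36, adjusted p = 0.0112). Both H3R26C libraries lay above both of H3WT, as the choice of regions required. The level in H3R8C, 1.92 and 2.43 on the scale of 8 libraries, was below that of H3R26C by a log2 difference of 1.5 (adjusted p = 0.0168), and no H3R2C library had a peak there.

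Single channel and receptor genes also rose. Kcna5, a voltage-gated potassium channel of heart and smooth muscle (chr6:126528901-126558250), had 0.222 and 0 in H3WT and 4.44 and 3.87 in H3R26C, and neither H3R8C nor H3R2C had a peak there. Plxna4, a plexin receptor for semaphorins (chr6:32579501-32594750), had 0.778 and 0.552 against 3.13 and 3.41, a log2 change of 1.95 (SE 0.21, adjusted p = 0.00534). Epha3, an ephrin receptor (chr16:63860601-63876000), had no peak in H3WT and 2.25 and 2.85 in H3R26C, through which alone it entered the fit. At Kcna5, Plxna4 and Epha3 the gap between genotypes was wider than the difference between the libraries of either, which the call itself favours. Epha3 also had peaks in both H3R8C libraries, at 1.90 and 2.12, and the direct difference between H3R26C and H3R8C was 0.01 (adjusted p = 1), whereas H3R2C had no peak there. Plxna4 had 3.41 and 4.18 in H3R2C, from which H3R26C differed by -0.50 (adjusted p = 0.108).

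Further rises covered genes of muscle, cartilage and nerve. Sgcd, a sarcoglycan of the muscle membrane (chr11:47543451-47600050), rose from 4.50 and 2.98 to 9.24 and 11.1, a log2 change of 1.41 (SE 0.25, adjusted p = 0.0179). Gdf6, a growth factor of joints and skull sutures, rose from 2.08 and 2.36 to 4.40 and 6.06. Gad2, an enzyme of GABA synthesis, rose from 1.59 and 2.09 to 3.91 and 5.70. All of these had H3K27me3 in every library, so the change was one of level. Prlr, the prolactin receptor (chr15:10174701-10184450), had the second largest log2 change among higher genes with a peak in every list, at 2.26 (SE 0.27, adjusted p = 0.00636), from 0.235 and 0.239 to 1.83 and 2.36. Shank1 with Clec11a, Nrgn with Siae, Lrp12 and Myh3 also rose, with log2 changes from 0.91 to 1.49.

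**Figure D2:**
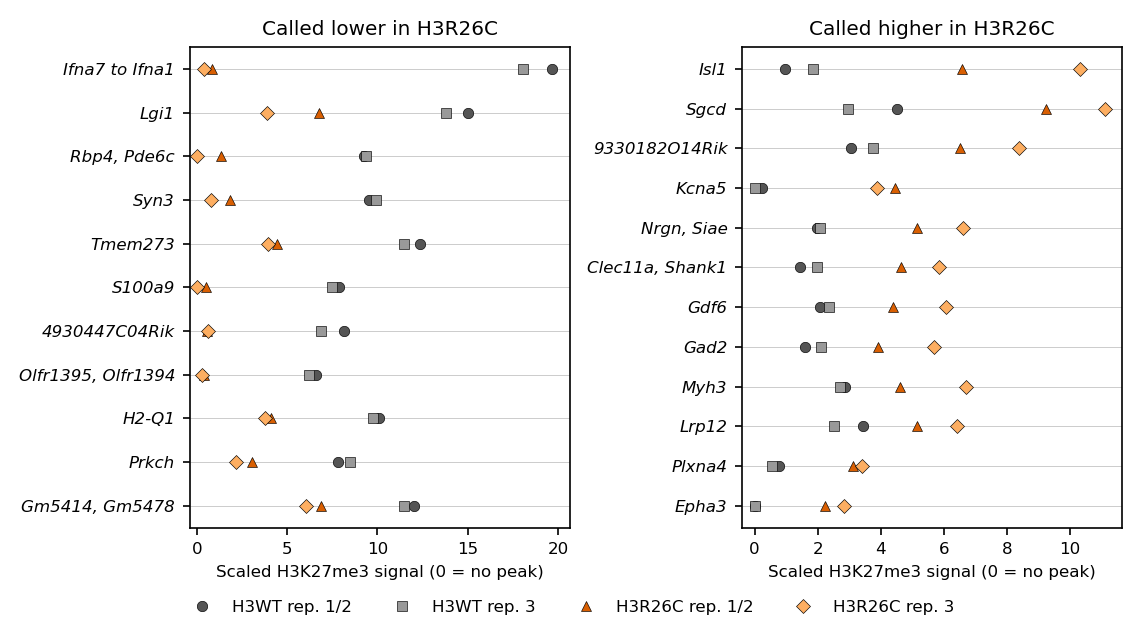
Scaled H3K27me3 signal (x axis, 0 where no peak was called) in each independent library at 11 of the 12 called regions with the largest fall and the 12 with the largest rise among regions with a protein-coding start. H3WT and H3R26C libraries do not overlap in any of them, which the choice of regions required; the Ifna7 to Ifna1 region goes from 18.1 or more in H3WT to 0.828 or less in H3R26C, and Isl1 from 1.86 or less to 6.58 or more.

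Set directly against the other lines, 11 of the 12 largest falls were lower in H3R26C than in H3R8C, and Tmem273 was higher. This compares with 7.48% of all consensus regions called lower and 13.5% called higher in H3R26C than in H3R8C. Of the same falls, 10 were lower in H3R26C than in H3R2C, where 12.2% of all regions were lower and 23.8% were higher. Of the 12 largest rises, 9 were higher than in H3R8C and 8 were higher than in H3R2C. The regions were chosen on the same H3R26C libraries, so these counts are a description. All calls rest on few libraries, and of the 72 regions named here or called at a listed gene, 14 passed without H3WT replicates 1 and 2, 16 without H3WT replicate 3, 40 without H3R26C replicates 1 and 2 and 36 without H3R26C replicate 3. None changed direction.

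Calls at genes of development were few in each direction. Of 21938 protein-coding genes, 2779 had a start in or within 1 kb of a consensus region, and 292 of these (10.5%) lay in a lower and 230 (8.28%) in a higher region. Where every list had a peak, 176 of 2044 such genes (8.61%) were lower and 128 (6.26%) higher in that fit. Over all listed genes other than controls and markers, 354 of 857 lay in a consensus region, 25 in a lower one (7.06%) and 25 in a higher one (7.06%). Their median log2 change was 0.18, beside 0.07 over all protein-coding genes. With absent peaks at the lowest signal of their list, 16 of the 25 lower and 15 of the 25 higher genes kept their call, against 159 of 292 and 87 of 230 of all protein-coding genes.

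No gene of the Hox clusters, which pattern the body axis, was called, with 3 of 11 Hoxa, 10 of 10 Hoxb, 9 of 9 Hoxc and 9 of 9 Hoxd genes in consensus regions. These genes shared few regions, namely 2 for Hoxa, 2 for Hoxb, 1 for Hoxc and 3 for Hoxd. Over Hoxb1 to Hoxb9 (chr11:96241251-96388050) the scaled signal was 86.7 and 83.1 in H3WT and 87.8 and 123 in H3R26C, a log2 change of 0.29 (SE 1.03, adjusted p = 0.856). The H3R26C libraries differed from each other by more than the genotypes did. Over Hoxc4 to Hoxc13 (chr15:102891301-103127700) it was 138.5 and 135.8 against 123.1 and 147.1, and over Hoxd8 to Hoxd13 (chr2:74655601-74704950) it was 18.2 and 17.7 against 19.7 and 29.1. The spread estimated for such strong regions was wide, so that a moderate change there would not have been called.

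The other homeobox genes, which specify cell types and organ fields, were marked in most cases, with 65 of 88 in a consensus region. H3K27me3 was lower at 5, among them Nkx2-5, Dlx4 and Pitx3, and higher at 2 (Isl1 and Meox2), and the median log2 change of the 65 was 0.16. These shares were 7.69% and 3.08%, beside 10.5% and 8.28% of all marked protein-coding genes. In the fit restricted to regions with a peak in every list, 4 of 62 were lower and 4 higher. Nkx2-5, a regulator of heart development (chr17:26836001-26853000), had 6.22 and 7.04 in H3WT and 1.44 and 1.80 in H3R26C, a log2 change of -1.88 (SE 0.17, adjusted p = 0.00451). H3R8C held 5.09 and 5.36 there and H3R2C 0.182 and 0.253, so H3R26C lay between them, with direct differences of -1.83 (adjusted p = 0.000891) and 1.72 (adjusted p = 0.000713). Pitx3, of dopaminergic neurons and the lens, fell from 2.13 and 2.93 to 0.626 and 0.614, and at both genes the H3R26C libraries lay close together. Dlx4, of the branchial arches and placenta, had 2.12 and 3.41 in H3WT and no peak in H3R26C. Meox2, of the somites and limb muscle, rose from 0.294 and 0.613 to 1.78 and 2.08.

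Neighbouring transcription factor families held single changes. None of 15 marked forkhead genes, of 29 listed, was called. Six6, a factor of eye and pituitary (chr12:72938451-72950500), had 3.10 and 3.55 in H3WT against 0.513 and 0, a log2 change of -3.03 (SE 0.59, adjusted p = 0.0238). The long region just before it, at the start of the predicted gene 4930447C04Rik (chr12:72904551-72933600), fell from 8.14 and 6.86 to 0.577 and 0.618. H3R8C kept 6.07 and 5.99 at the long region, and H3R2C had 0.942 and 1.33. Pax1, of the sclerotome (chr2:147349851-147368750), fell from 4.95 and 4.44 to 1.65 and 2.12, a log2 change of -1.22 (SE 0.18, adjusted p = 0.0104). Neither H3R8C library had a peak at Pax1, so that H3R26C was above H3R8C there (adjusted p = 0.000835).

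Sox6 was the only call among 9 marked SOX genes in the fit of all consensus regions. In the fit restricted to regions with a peak in every list, 1 of 7 SOX genes was lower and 0 higher.

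Among 10 marked T-box genes, Tbx4, of the hindlimb, fell from 1.70 and 1.94 to 0.910 and 0.841. Tbx10 had 1.03 and 1.24 in H3WT and no peak in H3R26C, and Tbr1, of cortical neurons, had no peak in H3WT and 0.516 and 0.661 in H3R26C. The call at Tbr1 was lost with absent peaks at the lowest signal of their list. Tbx4 had a peak in every list, so its log2 change of -0.88 is the same in that fit by construction. Its limma adjusted p there was 0.0703. In the fit restricted to regions with a peak in every list it was 0.0708, and 0 of 8 T-box genes were lower and 1 higher. The call at Tbx4 was also lost when the H3R2C and H3R8C libraries were added. Of 28 marked genes for proneural and other helix-loop-helix factors, 2 were lower (Neurod1 and Tcf24) and 2 higher (Neurod6 and Msc). Neurod1, of neurons and islets, fell from 3.99 and 3.23 to 1.57 and 1.85, while Msc, of muscle and lymphoid precursors, had no peak in H3WT and 1.10 and 1.33 in H3R26C. Neither H3R8C nor H3R2C had a peak at Msc. Tcf24 and Neurod6 lost their call with absent peaks at the lowest signal, and Neurod1 lost it when the H3R2C and H3R8C libraries were added to the fit.

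**Figure D3:**
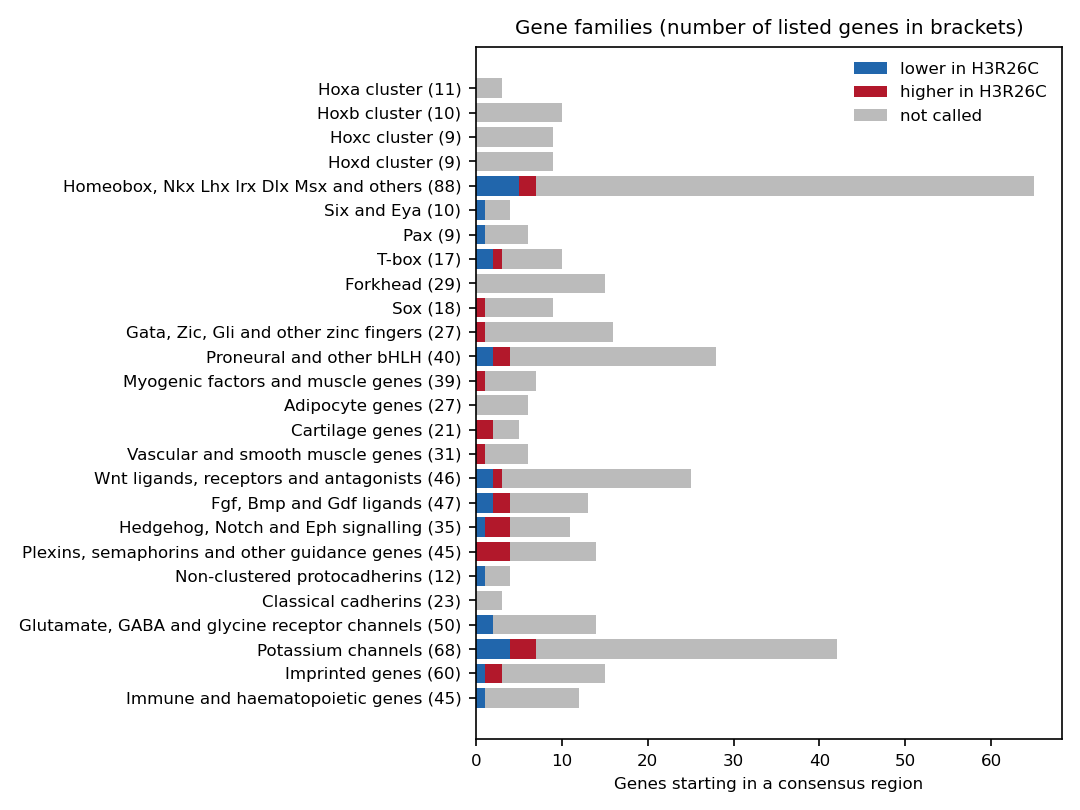
Number of listed genes (x axis) whose start lay in a consensus region, by gene family, split by the call in H3R26C against H3WT, with families of at least 3 such genes shown. Not called is the largest class in every family, the 4 Hox clusters and the forkhead genes have no call, and guidance genes have 4 higher and 0 lower.

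Most listed lineage genes of mesenchyme were not marked. Over all marked protein-coding genes, 10.5% were lower and 8.28% higher, and these lists are too short to be set against those shares. Of 39 myogenic factors and muscle genes 7 were marked, and Myh3, the embryonic myosin heavy chain, was the only one called, with 2.87 and 2.71 in H3WT and 4.62 and 6.70 in H3R26C, a log2 change of 0.93 (SE 0.22, adjusted p = 0.0435). Myod1, the myogenic master factor, had 1.20 and 1.70 against 2.54 and 3.06, which did not pass (adjusted p = 0.0603). In both, the H3R26C libraries lay above those of H3WT. Of 27 adipocyte genes 6 were marked and none was called, and of 19 bone genes only Sost was marked, with 4.75 and 5.79 against 4.43 and 5.38. Of 21 cartilage genes 5 were marked and 2 were higher, namely Acan, the proteoglycan aggrecan, from 1.80 and 1.85 to 3.50 and 4.43, and Sox6. Kdr, a receptor for vascular endothelial growth factor, had no peak in H3WT and 0.725 and 0.685 in H3R26C, and was the only call among 6 marked vascular genes. These calls are those of the fit of all consensus regions. In the fit restricted to regions with a peak in every list, 2 of 7 muscle genes were higher and 0 lower. Of 3 adipocyte genes in that fit 1 was lower and 1 higher, and of 5 vascular genes 1 was higher and 0 lower.

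Signalling genes changed in both directions. Of 25 marked Wnt ligands, receptors and antagonists, Wnt11 fell from 2.12 and 2.42 to 0.973 and 0.940, the receptor gene Lgr6 was lower and the antagonist gene Frzb was higher. The growth factors Fgf4 and Bmp10 were lower and Bmp3 and Gdf6 were higher, of 13 marked. Bmp3, an antagonist of bone formation, had 0 and 0.376 in H3WT and 2.12 and 2.41 in H3R26C, with no peak in H3R8C or H3R2C. In the Hedgehog, Notch and Eph list the ligand gene Efna3 was lower and Hhip, Epha3 and Epha4 were higher, of 11 marked. Several of these calls were at weak regions, and those of Lgr6, Frzb, Hhip, Efna3 and Epha4 were lost with absent peaks at the lowest signal.

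Calls at guidance genes lay mostly where H3WT had no peak. Of 14 marked plexins, semaphorins and other guidance genes, 4 were higher (Plxna4, Sema6d, Robo2 and Ntng2) and 0 lower, with a median log2 change of 0.52. Over all marked protein-coding genes, 8.28% were higher and 10.5% lower. Of the 10 guidance genes with a peak in every list, 1 was higher and 0 lower in that fit. The median log2 change of those 10 was 0.09. Apart from Plxna4 the higher genes had no peak in H3WT. In H3R26C Robo2, a receptor for Slit proteins, had 0.904 and 0.530. Ntng2, a netrin-like protein, had 0.862 and 0.701 in H3R26C, and Sema6d had 0.629 and 0.275. Sema6d and Robo2 lost their call with absent peaks at the lowest signal. At Ntng2 H3R2C held 5.84 and 8.11, above H3R26C by the direct test (adjusted p = 0.00055).

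Potassium channels, of which 42 of 68 were marked, had 4 lower and 3 higher members. These shares, 9.52% and 7.14%, lay near the 10.5% and 8.28% of all marked protein-coding genes. In the fit restricted to regions with a peak in every list, 3 of 33 channels were lower and 2 higher. Kcnh4 fell from 1.87 and 2.52 to 0.444 and 0.311 and Kcng4 from 1.47 and 2.11 to 0.396 and 0.398, and Kcnj15 was lower at a weak region, a call lost with absent peaks at the lowest signal. The higher members in the fit of all consensus regions, Kcna3, Kcna5 and Kcna6, all belonged to the Shaker family. Kcna5 and Kcna6 are neighbours on chromosome 6. Each of the Shaker genes named lacked a peak in at least 1 H3WT library, so the 2 higher channels of the restricted fit are other genes. Kcna6, chosen after its values were seen, had no peak in H3WT and only 0.205 and 0.315 in H3R26C, and its call was lost with absent peaks at the lowest signal. Kcna3 had no peak in H3WT and 0.791 and 1.39 in H3R26C. Grin1, the obligatory subunit of NMDA receptors, fell from 4.21 and 5.41 to 2.29 and 1.51, and Gabrd, a subunit of GABA receptors, fell from 2.19 and 2.55 to 0.877 and 0.303, of 14 marked transmitter receptor channels. Pcdh8, a protocadherin of somites and synapses, fell from 6.14 and 6.002 to 3.38 and 3.56, the only call among 4 marked. Pcdh8 had a peak in every list, so its log2 change of -0.77 is by construction the same with absent peaks at the lowest signal. Its limma adjusted p in that setting was 0.0536. Of 15 marked imprinted genes Casd1 was lower, and Th and Slc22a2 were higher, and the calls of Casd1 and Th were lost with absent peaks at the lowest signal. Phc2 was the only 1 of 31 PRC2 and PRC1 genes in a consensus region, and it was not called.

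Changes also ran together along chromosomes. Among consecutive consensus regions, 196 runs of 3 or more were lower throughout and held 912 regions, and 164 such runs were higher throughout and held 706. The longest lower run held 17 regions in a row (chr1:60908501-61293000), from Ctla4, an inhibitory receptor of T cells, over its neighbour Icos to the intergenic stretch beyond. Its summed scaled signal was 11.3 and 10.8 in H3WT, and no H3R26C library had a peak in any of the 17 regions. H3R8C had none there either, whereas the H3R2C lists held 21 and 15 peaks. In the HA lists, which map the tagged histone, peaks covered 48.8 and 8 kb there in H3WT and 1.15 and 2.45 kb in H3R26C. Over the whole HA lists, peaks covered 213.4 and 134.6 Mb in H3WT against 64.4 and 60.5 Mb in H3R26C. Less HA coverage in H3R26C was thus not particular to this run. The regions were short, from 2.1 to 9.7 kb, and 5 of the 17 kept their call with absent peaks at the lowest signal.

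The run of the interferon cluster extended over 13 regions to Dmrta1, a gene related to Doublesex (chr4:88807051-89697100), past Mtap, Cdkn2a and Cdkn2b, which held no consensus region. It summed to 34.8 and 30.2 in H3WT and to 0.828 and 0.371 in H3R26C, where all but 1 region had no peak. Besides the Ifna region, an intergenic region of 15.6 kb upstream of Dmrta1 (chr4:89558401-89573950) fell from 5.39 and 4.42 to no peak. H3R8C and H3R2C lists held 14 to 20 peaks in the run, and 5 of the 13 regions kept their call with absent peaks at the lowest signal. Peaks of the tagged histone numbered 102 and 108 there in H3R26C and covered 134.05 and 143.5 kb. The 22 and 65 peaks in H3WT covered 322.9 and 199.5 kb, and whole HA lists also covered more in H3WT. The third long run, also of 13 regions, was on chromosome 8 (chr8:105442151-107819350), and was not contiguous. Its first 2 regions lay in Lrrc36 and the other 11 in a stretch at its far end with none in a protein-coding gene (chr8:107592151-107819350), with no consensus region between. Its sum went from 9.99 and 8.82 to 0.256 and 0, with 14 and 12 peaks in H3R8C and 4 and 5 in H3R2C, and 3 of the 13 kept their call with absent peaks at the lowest signal.

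The longest higher run held 25 regions at Sox6, a SOX factor of cartilage, muscle and neurons (chr7:114866401-116054000), 17 of them in the gene body. No H3WT library had a peak in any of them, and the summed scaled signal in H3R26C was 14.8 and 20.9. At the start of Sox6 the region (chr7:116033251-116040550) had 1.24 and 2.37 in H3R26C. Like the rest of the run, it entered the fit only through H3R26C. H3R8C held 28 and 25 peaks in the run and H3R2C 1 and 1, so the mark over Sox6 was also present in H3R8C. HA peaks in the run covered 403 and 177.85 kb in H3WT and 10.2 and 3.75 kb in H3R26C, whose whole HA lists also covered less. A further run of 14 regions lay on chromosome 8 with no protein-coding gene (chr8:17819701-18547550). The H3R8C lists held 7 and 3 peaks there and the H3R2C lists 19 and 9, so the mark was also present in both lines. Another run, of 12 regions, lay wholly within Kcnma1, a calcium-activated potassium channel (chr14:23573201-23932450). With absent peaks at the lowest signal, 8 of the 25 regions at Sox6 and 4 of the 12 at Kcnma1 kept their call. In the Kcnma1 run the sum was 0.215 and 0 in H3WT and 5.16 and 8.69 in H3R26C, and H3R8C and H3R2C held at most 2 peaks.

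**Figure D4:**
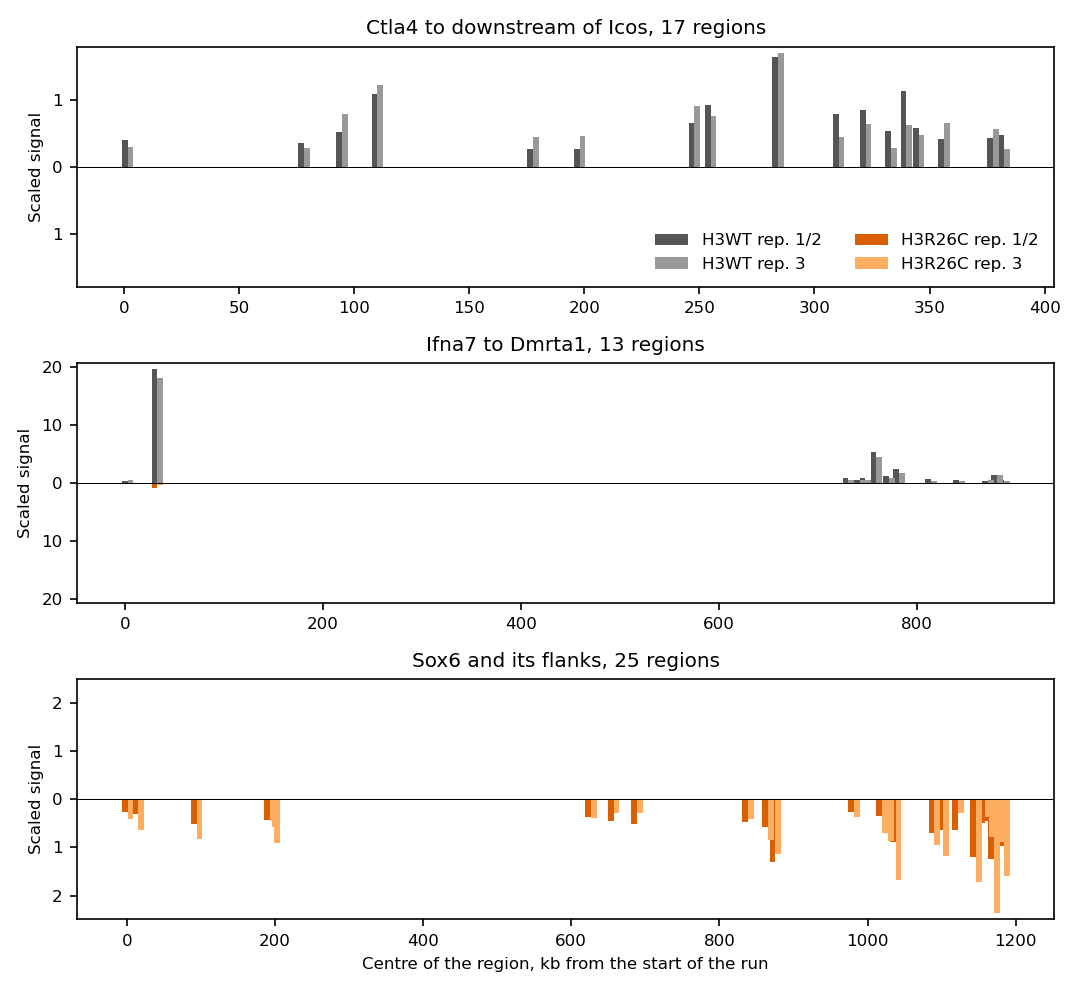
Scaled H3K27me3 signal of each region in a run (y axis, H3WT upward and H3R26C downward, a bar per independent library) against the distance of its centre from the start of the run in kb. The 17 regions from Ctla4 have no H3R26C bar, the Ifna region stands out in its run at 19.7 and 18.1 in H3WT, and the 25 regions at Sox6 have no H3WT bar.

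In bins of 500 kb, 386 of 2816 (13.7%) were lower in H3R26C and 319 (11.3%) were higher. By the difference of mean scaled signal the largest fall was in the bin of Rbp4, Pde6c and Lgi1 (chr19:38000001-38500000), from 8.05 and 8.19 to 2.32 and 1.24 as multiples of a typical shared bin, a log2 change of -2.10 (SE 0.30, adjusted p = 0.0104), with 8 of its 9 consensus regions lower. Next came the interferon bin (chr4:88500001-89000000), from 7.57 and 6.93 to 1.40 and 0.804, and the bin of Six6 (chr12:72500001-73000000), from 7.30 and 6.36 to 1.13 and 1.29, which both changed by more on the log2 scale, by -2.50 and -2.28. In the bin of Lingo1, a neuronal receptor component (chr9:56500001-57000000), 10 of 13 regions were lower. An X-linked bin with Iqsec2, Kantr, Tspyl2 and Gpr173 (chrX:152000001-152500000) had 9.55 and 7.40 in H3WT against 3.01 and 3.83. Its call stands beside the higher share of X-linked peaks in H3WT replicates 1 and 2, whose part was not tested.

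The largest rise among bins, by the same difference, was at Gabrp, a GABA receptor subunit, and Kcnip1, a potassium channel partner (chr11:33500001-34000000), from 0.805 and 0.755 to 3.68 and 5.36, a log2 change of 2.19 (SE 0.24, adjusted p = 0.00972), with 15 of 23 regions higher. A bin of vomeronasal receptor genes (Vmn1r213 to Vmn1r223, chr13:23000001-23500000) rose from 2.12 and 2.14 to 4.43 and 6.61, and these are also close copies of each other. The bins of Sgcd (chr11:47500001-48000000) and of Alk, a receptor tyrosine kinase (chr17:72500001-73000000), rose as well, with log2 changes of 1.5 and 1.09. In none of these bins was a region called in the other direction. The bin calls rested on both H3WT libraries, since without either H3WT library no bin passed by limma in either direction, with 390 and 395 lower and 258 and 302 higher at an unadjusted p under 0.05. Without H3R26C replicates 1 and 2 or without replicate 3, 14 and 21 bins were lower and 142 and 144 were higher.

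Chromosomes differed in their balance of calls. Chromosome 13 had 5.57% of its consensus regions lower and 19% higher, with a median log2 change of 0.28, while chromosome 8 had 18.1% lower and 9.99% higher with a median of -0.30. On chromosome 7 the shares were 18.4% and 12.3%. The X chromosome had 10.4% lower and 3.11% higher, and its summed scaled signal was 2332 in H3WT replicates 1 and 2 against 1609 to 1780 in the other libraries. Over autosomes alone, 2129 regions were lower and 2064 higher, and with the median change of each chromosome set to 0, 2248 and 2072 were.

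**Figure D5:**
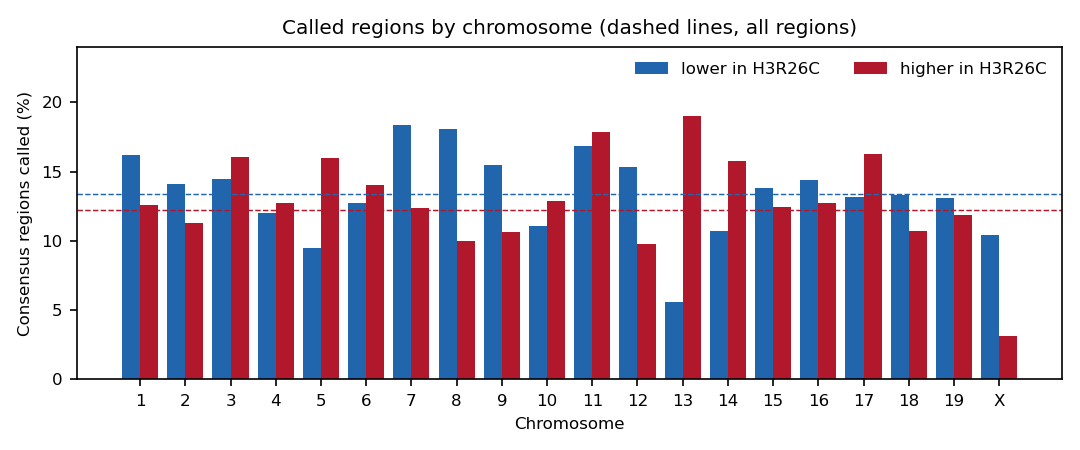
Share of consensus regions called lower and higher in H3R26C (y axis, percent) on each chromosome with at least 20 consensus regions, with dashed lines at 13.4% lower and 12.2% higher for all regions. Chromosome 13 has 5.57% lower and 19% higher, and X has 10.4% lower and 3.11% higher.

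Calls were split by the length of the region. Of 7549 regions under 5 kb, 18.9% were lower and 20.4% higher, whereas of 893 regions of at least 20 kb, 10.2% were lower and 2.46% higher. The median lower region was 4.0 kb long and the median higher region 3.5 kb, against 6.2 kb where no call was made. H3R26C replicate 3 had shorter peaks than the other lists, and its part in these shares was not tested. Base composition was close in all classes, with a median GC content of 43.2% in lower, 41.9% in higher and 43.0% in other regions, and 8.20, 8 and 8.66 CpG per kb. Start sites lay in 21.1% of lower and 19.4% of higher regions against 27.01% of the others.

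Overlap with peaks of the tagged histone differed between lower and higher regions in both genotypes. An HA peak was found at 30.0% and 32.1% of the lower regions in the H3WT lists and at 24.1% and 25.9% in the H3R26C lists. At higher regions the shares were 4.71% and 3.66% in H3WT and 3.66% and 3.09% in H3R26C, and at regions without a call 12.1% and 13.4%, and 10.2% and 10.2%. The order was the same in all 4 lists, although the median HA peak was 10.7 and 2.65 kb long in H3WT and 1.1 and 1.05 kb in H3R26C. The part of the tagged histone in the H3K27me3 difference was not tested.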

How the data were processed

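Per the methods of the study, reads were mapped with Rsubread, on mm10 by the submitters' notes, and peaks were called by the authors with SEACR (version 1.3 in the submitters' processing notes) in stringent mode with its norm option. Every labelled sample has a deposited list, in which a peak comes with coordinates, total signal (coverage summed over the peak) and maximum signal, which are not on a common scale between lists. The study states read totals per sample, but the lists hold no read counts per peak, so the totals were not used here, no counting interval is given, and precision is the spread between libraries. A weak block of signal can pass the peak caller in 1 list and not in another, and then has no value in the other list. No read counts entered the tests.

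Group and replicate came from the titles. The stated read totals differ between the replicates whose lists are identical, so which of their libraries such a list holds is not known. Peaks of the 4 independent lists were merged where they overlapped or touched, and each list was divided by its median over shared regions. limma 3.58.1 in R 4.3.3 (lmFit, eBayes with trend) was fitted to log2(scaled signal + 0.25) of these libraries, and p was adjusted over all regions or bins of the fit. Because absent peaks take 1 fixed value, spreads of 0 arise there. H3R8C and H3R2C were set against H3R26C in a fit of all 4 genotypes. H3R17C, IgG and H3K4me3 lists were not used here.

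Genes came from GENCODE (basic, GRCm38, the build of mm10), with a start within 1 kb of a region, and promoters came from RefSeq. A gene in several regions took the one with the highest mean signal. Named were, in each direction, the 12 called regions with a protein-coding start and the largest difference among those without overlap of the genotypes, the 5 with a peak in every list and the largest log2 change, 5 bins, 3 runs, and up to 6 called members of each of 32 gene lists, and some of these are not reported here. Members and lists were chosen with earlier results of these data known. Scripts (Python 3.11.15) were tested on simulated data. Alternatives covered pseudocount, absent peaks, scaling, filters, merging, peak threshold, all 3 labelled replicates, the replicate number as a block, added genotypes and leaving out each library, and the restriction to autosomes was chosen after seeing the data.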

Additional observations from a re-analysis of the deposited data

How the results depend on the processing

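None of the 72 regions or 10 bins named changed direction under an alternative. The genotypes did not overlap in any of them. Leaving out a library, another pseudocount or the replicate block therefore could not reverse a direction. The counts of lower and higher regions (2292 and 2101) stayed within 1.5 times under both pseudocounts, other scaling, maximum signal, eBayes without trend, merging within 1 kb, equal numbers of peaks, H3R2C and H3R8C added, centred chromosomes and autosomes. They were 916 and 589 with absent peaks at the lowest signal, 581 and 399 over regions with a peak in every list, 1252 and 1233 for the upper 50% of peaks, and 0 and 0 by limma without a filter, where 3202 and 2870 had an unadjusted p under 0.05. The signal as deposited had a median log2 change of -0.29 (-0.02 with scaling), with 1956 lower and 1683 higher and 34 of the 72 named regions called, and maximum signal called 41 of them. All 3 labelled replicates, with identical lists counted separately, gave 3152 higher regions, 737 lower and 756 higher bins, and 5047 lost and 8369 gained regions. The upper 50% of peaks gave 1060 lost and 1153 gained.

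Leaving out 1 library gave 843 to 1898 lower and 375 to 2020 higher regions, 0 to 21 lower and 0 to 144 higher bins, 2216 to 4478 lost and 2745 to 6843 gained regions. A lone library of a genotype is then assumed to vary like the other genotype, and the test has fewer samples. The covered length difference ranged from -36.92 to 18.99 Mb and that of peaks of at least 10 kb from -1308.5 to 306.5, and both turned positive without H3R26C replicate 3. Bins of 250 kb gave 494 higher, and bins of 1 Mb gave 244 lower and 193 higher.

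Same-numbered lists of the genotypes deviated with a correlation of 0.0988 over all consensus regions and 0.179 over regions with a peak in every list. With 2 pairs, and no label that ties a number to a culture or day, a pairing was not established. With the replicate block, 3101 regions were lower and 2741 higher, and 583 bins were lower and 553 higher. Weak regions near the lowest signal of a list (scaled 0.188 to 0.271) cannot be told from absent ones in these lists.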
